A study of Arabidopsis thaliana with 16 samples.

Results

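Transposable element genes are annotated genes that lie inside transposons, among them reading frames for the transposase or reverse transcriptase of a mobile element and remnants of such frames. The comparison tables of the study listed 3857 of them among 69252 entries. The transcribed ones were chosen by their level, as those with a value above 0 in at least 1 of the 3 groups described below. This rule gave 654 genes, 17.0% of the transposable element genes, and the other 3203 were listed at 0 in every group. Counts and levels of these 654 genes are therefore descriptions, while their position on the chromosomes played no part in the choice.

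Plants keep most transposons silent by methylating cytosines in their DNA and by packing them into heterochromatin. In Arabidopsis thaliana this chromatin surrounds the centromeres, while the chromosome arms hold single, often short insertions between protein-coding genes. On the arms, small RNAs guide DRM2, the main de novo methyltransferase of the RNA-directed DNA methylation pathway, to such insertions, and in heterochromatin the remodeller DDM1 and the methyltransferases MET1, CMT2 and CMT3 carry most of the silencing.

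The study addressed the action of ultraviolet B (UV-B) light on plant DNA methylation. The groups used here were dd without UV-B, wild-type Col-0 with UV-B, and Col-0 without it, the control of both comparisons (Col-0 in white light from here on). Col-0 is the standard laboratory accession, and dd is a Col-0 line with T-DNA insertions in both DRM1 and DRM2 (drm1-2 drm2-2), the second being that methyltransferase and the first its close relative. All were seedlings on sucrose agar, grown in 60 mE of white light and frozen on day 10, and the UV-B group received 1.5 mE at 315 nm besides from day 1. Each group had 2 biological replicates by its labels, but the tables hold 1 pooled value per group in FPKM (fragments scaled by transcript length and by library size). Replicate spread is therefore unknown, and the q-values of the authors are the one test there is. UV-B-treated dd and the bisulfite libraries were not analysed here.

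The groups differed in depth. Among isolated transposon entries, the lowest products of FPKM and length, taken above 0.01 and close to what 1 fragment is worth, had a median 3.58 times that of Col-0 in white light in dd and 2.57 times under UV-B, so 1 fragment counted for more in both and low transcripts were more easily missed. Col-0 in white light appears in both tables with values that differ by a factor of 1.01, and each comparison is given with its own Col-0 value. The 3 green tissue markers summed to 24995 FPKM in dd, 23332 under UV-B and 24848 in Col-0 in white light. Under UV-B that sum joined a higher RBCS1A, at 13340 FPKM against 11790 for Col-0, and a lower LHB1B2, with 6479 against 8787. The 3 root markers summed to 2102 FPKM in dd, 1818 under UV-B and 2190 in Col-0 in white light, and the 3 flower markers to 1.06 FPKM in dd, 2.05 under UV-B and 1.22 in Col-0. Most of the flower difference was in AP3, with 1.23 FPKM under UV-B against 0.291, and the part of these markers in the results was not tested. Both male germ line markers were at 0 in all 3 groups, and the 3 seed markers summed to at most 0.700 FPKM. DRM2 had 1.82 FPKM in dd, against 7.09 in Col-0 in white light, in the authors' deposited table (q = 0.0138), and DRM1 was listed at 0.319 in dd and at 0 in Col-0.

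Most of the 654 genes were barely detected. The median of their highest value was 0.0308 FPKM, 198 reached over 0.1 FPKM in some group, 70 over 1 FPKM and 7 over 10 FPKM. At the other end, 80 genes never exceeded 0.0001 FPKM, and the lowest was listed at 6.40e-08, a value far below 1 fragment, next to the genes at 0 that the rule left out. In white light, 291 were above 0 in dd and 471 in Col-0. Under UV-B, 281 were above 0, against 469 in Col-0 in the same table. Above 1 FPKM the order turned, with 62 genes in dd, 58 under UV-B and 51 in Col-0 in white light. No base over all entries is given at that level, and 1 fragment counted for more FPKM in dd and under UV-B. All 3 groups shared 141 of the genes, 101 were above 0 in dd alone, 75 under UV-B alone and 230 in Col-0 in white light alone. Of those above 0 in Col-0, 38.9% were also above 0 in dd and 42.4% under UV-B. The shares over all entries were 88.2% and 89.0%, and over entries annotated as transposons 34.6% and 36.8%.

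A locus range in the tables can span several overlapping entries, and the 654 genes fell into 618 such ranges. In 68 cases a gene shared its range with another of the 654. An entry that is not a transposon lay in the same range for 97 genes (14.8%), against 295 of the transposable element genes listed at 0 (9.21%), and for 74 genes the range held a protein-coding gene. Where a range held a single transposable element gene, its median length was 3669.5 bp for 366 transcribed genes and 2688 bp for 1453 listed at 0. No source used here says how fragments that match several near-identical copies were treated, so the split of FPKM between copies and between overlapping entries is uncertain.

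Transcribed transposable element genes were scarcest next to the centromeres and most frequent far out on the arms. Within 1 Mb of a centromere, 169 of 1559 transposable element genes had a transcript (10.8%). The share was 16.4% between 1 and 2 Mb, 22.9% between 2 and 3 Mb, 23.5% between 3 and 5 Mb and 30.8% between 5 and 10 Mb. Beyond 10 Mb it was 38.9%, or 28 of 72. The climb was steeper for genes over 1 FPKM, at 0.449% (7 genes) within 1 Mb and 13.9% (10 genes) beyond 10 Mb. The median of the highest value likewise was 0.0214 FPKM in the innermost bin and 0.264 FPKM in the outermost.

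Each group showed this gradient by itself. In dd, 3.46% of the transposable element genes within 1 Mb and 26.4% of those beyond 10 Mb were above 0. Under UV-B the shares were 3.66% and 27.8%, and in Col-0 in white light 7.18% and 29.2%. Only between 3 and 5 Mb in dd, at 9.56%, was a share below that of the bin inside it, 11.0%. The gradient was also there among ranges that hold transposons alone, at 10.6% within 1 Mb and 33.9% beyond 10 Mb. Annotated protein-coding genes in the same bins went the same way, with 47.8% above 0 within 1 Mb and 91.4% beyond 10 Mb, so an outward slope was not particular to transposable element genes. For entries annotated as transposons rather than as their genes the shares were low throughout, 4.94% within 1 Mb and 8.64% beyond 10 Mb.

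**Figure D1:**
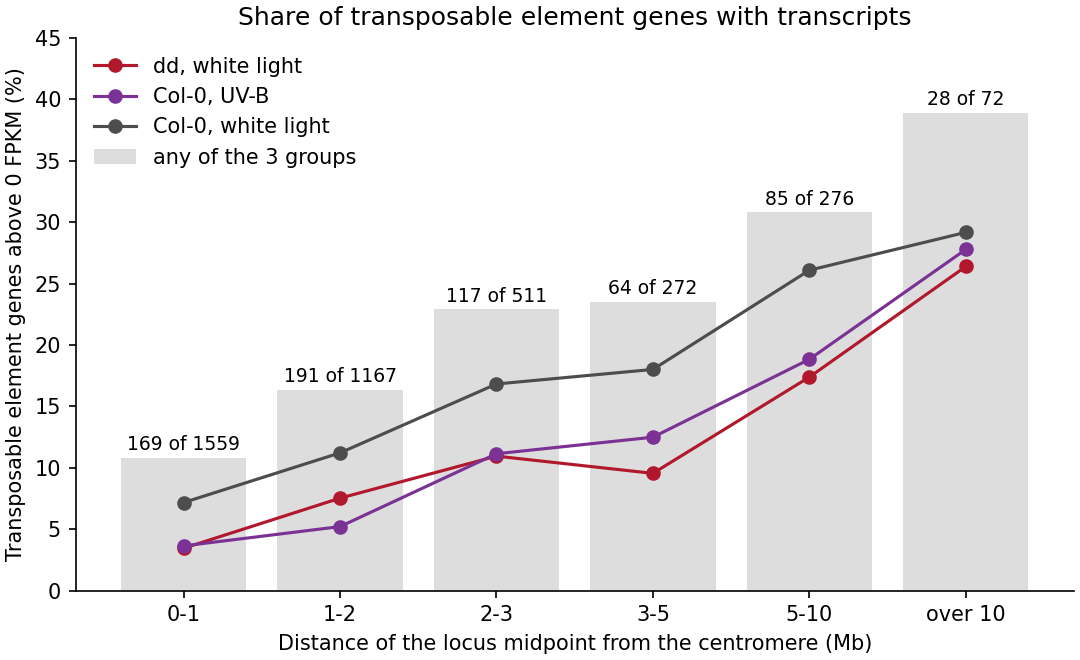
Share of transposable element genes above 0 FPKM (vertical axis, %) in bins of distance between the locus midpoint and the centromere (horizontal axis, Mb). Grey bars give any of the 3 groups with the counts above them, and lines give dd in white light, UV-B-treated Col-0 and Col-0 in white light. The bars climb outwards, to 38.9% in the outermost.

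Split once, at 2 Mb, 360 of 2726 transposable element genes within 2 Mb of a centromere were transcribed (13.2%) and 294 of 1131 farther out (26.0%). Of all 654, 55.0% lay within 2 Mb, against 73.9% of those listed at 0, and their median distance was 1.84 Mb, against 1.16 Mb. Among the 70 genes over 1 FPKM, 31.4% lay within 2 Mb. The outer share exceeded the inner one on each of the 5 chromosomes. Chromosome 3 had the widest gap, with 31.1% beyond and 12.7% within 2 Mb, and chromosome 4 the narrowest, with 18.2% and 12.9%. Neighbouring genes are not independent, so these shares carry no test.

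The chromosomes otherwise resembled each other. Chromosome 1 had 112 transcribed genes of 670, chromosome 2 had 150 of 819, chromosome 3 had 155 of 867, chromosome 4 had 100 of 706 and chromosome 5 had 137 of 795, or between 14.2% and 18.3%. Genes over 1 FPKM were most numerous on chromosome 5, with 23, and least on chromosome 4, with 9. Chromosome 4 also had the lowest summed level, 45.7 FPKM in dd and 35.5 in Col-0 in white light, and 29.5 under UV-B against 35.2 in Col-0. Chromosome 2 had the highest, 100.7 FPKM in dd against 86.9 in Col-0 in white light, and 103.0 under UV-B against 86.2.

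**Figure D2:**
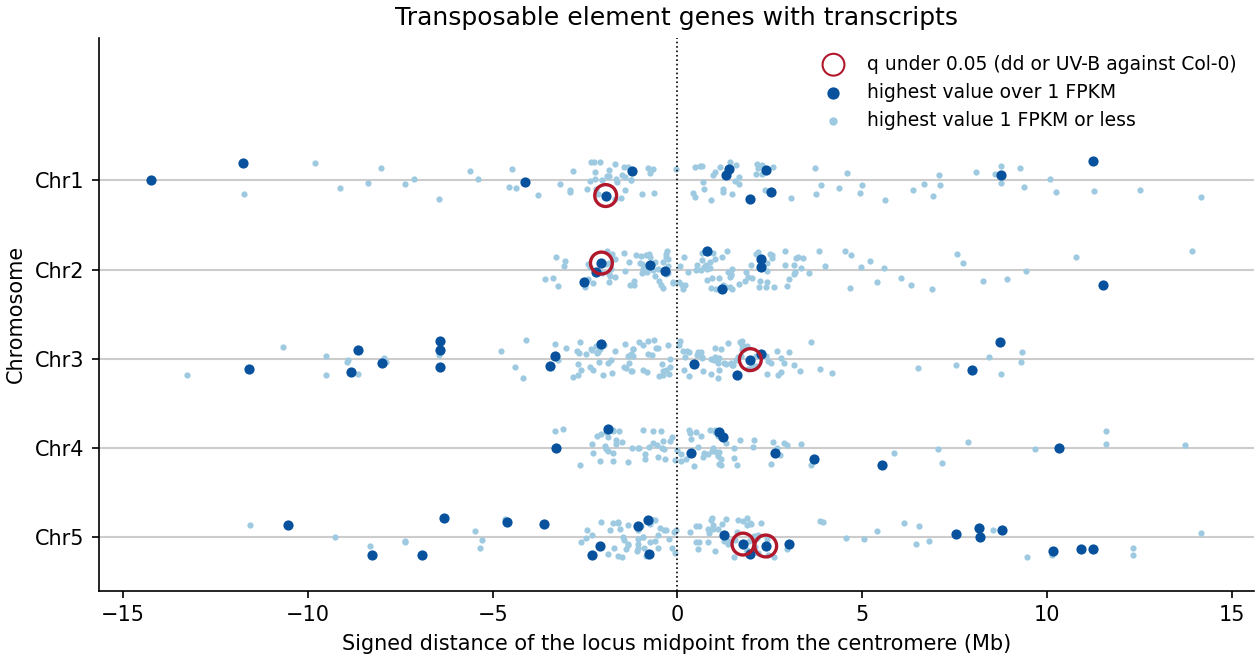
Each point is 1 of the 654 transcribed transposable element genes, placed by the signed distance of its locus midpoint from the centromere (horizontal axis, Mb) on its chromosome (rows; vertical scatter within a row is for legibility). Dark points reached over 1 FPKM and red rings mark the 5 genes with q under 0.05, all between 1.77 and 2.39 Mb from a centromere.

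A small number of loci held most of the summed level. The 70 genes over 1 FPKM held 91.9% of the summed FPKM in dd and 91.0% of that in Col-0 in white light, and the 10 highest held 45.4% and 43.1%. AT2G13975 (chromosome 2, 5859491 to 5865906) was highest, with 34.8 FPKM in dd against 33.0 in Col-0, and 34.8 under UV-B against 32.7. Its range also holds protein-coding genes. AT2G36040 on the long arm of chromosome 2, 11.5 Mb from the centromere, had 13.7 FPKM in dd against 17.0 in Col-0, and 19.0 under UV-B against 16.8. Neither passed q 0.05 in either of the authors' deposited tables.

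Of the 3857 transposable element genes, 18 have a name in RefSeq (assembly TAIR10.1, used for names only), and all 18 were among the transcribed ones. The largest named family is SADHU, small non-coding retrotransposons known in Arabidopsis for silencing that varies between copies and accessions. Its 10 genes lay mostly on the arms, 8 of them beyond 2 Mb, and 6 exceeded 1 FPKM. Sadhu4-2 (AT1G03420, chromosome 1, 844436 to 847739) had 16.0 FPKM in dd against 16.3 in Col-0, and 16.7 under UV-B against 16.1. Its range is shared with protein-coding annotation. SADHU4-1 (AT5G28913, chromosome 5, 10933813 to 10934730), only 0.766 Mb from the centromere, had 6.55 FPKM in dd against 6.07 in Col-0, and 5.43 under UV-B against 6.01. Both copies of subfamily 4, far apart in distance from the centromere, had levels close to those of Col-0.

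SADHU5-1 (AT4G01525, chromosome 4, 660810 to 661840) had 1.27 FPKM in dd against 3.56 in Col-0, a log2 change of -1.49 that did not pass in the authors' deposited table (p = 0.0119, q = 0.745). Under UV-B it had 3.99 FPKM against 3.53 in Col-0. SADHU1-2 (AT1G30835) had 4.05 FPKM in dd against 6.09 in Col-0, and 6.95 under UV-B against 6.03. The 10 SADHU genes summed to 32.6 FPKM in dd against 36.4 in Col-0, and to 37.5 under UV-B against 36.1. In each comparison 8 were above 0 in both groups, of which 4 had higher and 4 lower values in dd, and 5 higher and 3 lower values under UV-B, and none passed q 0.05.

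The 4 MUG genes belong to the MUSTANG family, host genes descended from the transposase of Mutator-like elements. All 4 lay between 6.31 and 11.6 Mb from a centromere and were above 0 in every group. MUG4 (AT5G16505, chromosome 5, 5390006 to 5392383) had 13.4 FPKM in dd against 12.9 in Col-0, and 14.0 under UV-B against 12.8. MUG5 (AT3G06940) had 5.79 FPKM in dd against 5.69, and 4.61 under UV-B against 5.64. The family summed to 22.7 FPKM in dd against 21.6 in Col-0, and to 21.6 under UV-B against 21.4. CYTOSLEEPER (AT1G15300), a relative of the domesticated hAT transposase gene DAYSLEEPER, had 0.699 FPKM in dd against 0.845, and 0.885 under UV-B against 0.838. None of these passed q 0.05 in the authors' deposited tables.

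The remaining names covered genes of other kinds. RE2 (AT4G02960), a copia-type retroelement, was listed at 0 in dd against 0.0195 FPKM in Col-0, and at 0.0747 under UV-B against 0.0194. EXT11 (AT5G49080), named as an extensin, a cell wall protein, had 3.68 FPKM in dd against 5.43 in Col-0 (p = 0.0204 and q = 0.999 in the authors' deposited table), and 4.56 under UV-B against 5.38. MEE19 (AT2G34130) was above 0 in dd alone, at 0.0313 FPKM. Of 14 further transposable element gene loci listed by identifier, 3 were transcribed and 11 were at 0 in all groups. AT4G16870, the highest of the 3, had 3.02 FPKM in dd against 2.32 in Col-0, and 1.80 under UV-B against 2.30. Its range too is shared with protein-coding annotation.

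Within 1 Mb of the centromeres, where transcripts were scarcest, a few genes had several FPKM in all groups. AT2G06950 (chromosome 2, 2858588 to 2864201) had 8.37 FPKM in dd against 8.85 in Col-0, and 8.22 under UV-B against 8.77. AT4G07507, whose range on chromosome 4 is shared with 5 other transposable element genes and with protein-coding annotation, had 4.37 FPKM in dd against 4.73, and 4.94 under UV-B against 4.69. AT3G42052 had 2.40 FPKM in dd against 2.17, and 2.29 under UV-B against 2.15. On chromosome 1 the highest gene this close, AT1G42240, reached 0.0551 FPKM in dd and was listed at 0 in both Col-0 groups.

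The first comparison asked which of these transcripts differ in dd. The authors' software had tested 62 of the 654 genes, the lowest with 1.12 FPKM in its higher group, and left 592 untested. Of the tested genes 3 were past q 0.05 in the authors' deposited table, all higher in dd (4.84% of those tested), and none was lower. Of all 20416 entries tested in that table, 0.421% passed, 0.264% higher and 0.157% lower. Since the levels of this same contrast chose the genes, the 2 shares are set side by side without further reading. At an unadjusted p under 0.05 in the authors' deposited table the counts were 5 higher and 2 lower, where 3.71% of all tested entries were past it, 1.78% higher and 1.92% lower. In whole seedlings, transcripts in more cells and more transcript per cell cannot be told apart.

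AT5G35207 (chromosome 5, 13471681 to 13472500) was the only one of the 3 with no transcript outside dd. It had 5.55 FPKM in dd and was listed at 0 in Col-0 in white light (q = 0.0138 in the authors' deposited table) and under UV-B. It lies 1.77 Mb from the centromere and shares its range with transposon entries that were at or near 0. The protein-coding genes on both sides did not pass, AT5G35200 with 25.4 FPKM in dd against 25.6 in Col-0 and PTM (AT5G35210), which starts 1401 bp after it, with 10.5 against 10.3.

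AT5G35935 (chromosome 5, 14083274 to 14089891) had 3.14 FPKM in dd against 0.124 in Col-0, a log2 change of 4.67 (q = 0.0138 in the authors' deposited table). Under UV-B it had 0.210 FPKM against 0.123 and was not tested. The protein-coding gene AT5G35940, which begins 682 bp after its range, was lower, with 1.10 FPKM in dd against 5.32 in Col-0 (q = 0.0138) and 2.40 under UV-B against 5.28 (q = 0.00458), in the authors' deposited tables. The protein-coding gene on the other side, AT5G35930, had 3.69 FPKM in dd against 3.63 in Col-0.

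AT2G04460 (chromosome 2, 1547328 to 1553647) was past the threshold in both comparisons, which share the Col-0 white-light libraries. It had 21.4 FPKM in dd against 9.56 in Col-0, a log2 change of 1.16 (q = 0.0138 in the authors' deposited table). Under UV-B it had 17.1 FPKM against 9.48, a log2 change of 0.85 (q = 0.00249 in the authors' deposited table). AT2G04470, the second transposable element gene of its range, was at 0 in every group. NUDT6, a Nudix hydrolase gene that ends 1792 bp before the range, had 3.98 FPKM in dd against 4.37 in Col-0, and 3.51 under UV-B against 4.34, past q 0.05 in neither of the authors' deposited tables.

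AT4G04293 (chromosome 4, 2076832 to 2077361) had the largest difference in FPKM in dd without passing the test. It had 15.6 FPKM in dd against 0.769 in Col-0, a log2 change of 4.34 (p = 0.0501 and q = 0.999 in the authors' deposited table), and 1.42 under UV-B against 0.763. The transposon entry AT4TE09845 in the same short range had 37.4 FPKM in dd against 0.455 in Col-0, and it did not pass either (p = 0.208 in the authors' deposited table). With 1 pooled value per group, how far the 2 dd libraries agree on it cannot be seen.

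Among the other large changes in dd, AT5G28888 had 1.12 FPKM against 0.0390 in Col-0 (log2 change 4.84) and AT1G36680 had 1.01 against 0.0927 (log2 change 3.45). AT2G04135 (chromosome 2, 1388194 to 1393901) had 3.00 FPKM in dd against 0.526, and 1.97 under UV-B against 0.522. In the authors' deposited tables its unadjusted p was 0.0328 for dd and 0.0496 for UV-B, with q above 0.05 for both. In the other direction AT1G43590 had 0.568 FPKM in dd against 2.15 in Col-0 (log2 change -1.92), and AT3G29798 had 0.631 against 1.29 (log2 change -1.04). None of these 5 genes passed q 0.05 in the authors' deposited table.

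A further set was seen in dd and listed at 0 in Col-0, which gives no fold change. There were 108 such genes, 22 of them over 0.1 FPKM in dd. Over all entries compared, 859 were above 0 in dd alone, 3165 in Col-0 alone and 23656 in both, against 108, 288 and 183 of the transposable element genes. After AT5G35207 the highest were AT5G26590 with 1.07 FPKM, AT3G44045 with 0.865, AT2G01700 with 0.737 and AT4G06728 with 0.578, the last 0.0814 Mb from the centromere of chromosome 4. All 4 were at 0 under UV-B too, and none had been tested by the authors. The reverse set, above 0 in Col-0 and at 0 in dd, held 288 genes, led by AT2G05950 with 0.817 FPKM in Col-0 and AT3G13270 with 0.563.

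The second comparison asked which of these transcripts differ in the wild type under UV-B. Again 62 of the 654 genes had been tested, 56 of them in both tables. Past q 0.05 in the authors' deposited table were 2 genes higher under UV-B (3.23% of those tested) and 1 lower (1.61%). Of all 20595 tested entries 3.85% passed, 2.04% higher and 1.81% lower, and as in dd the contrast is the one that chose the genes. At an unadjusted p under 0.05 the counts were 5 higher and 2 lower, where 11.7% of all tested entries were past it, 6.03% higher and 5.64% lower.

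The 2 higher genes were AT2G04460, given above, and AT3G43955 (chromosome 3, 15768787 to 15773753). AT3G43955 had 3.66 FPKM under UV-B against 1.28 in Col-0 in white light, a log2 change of 1.51 (q = 0.00249 in the authors' deposited table). In dd it had 3.04 FPKM against 1.29, with p = 0.00205 and q = 0.241 in the authors' deposited table. The transposon entry AT3TE63765 of the same range had 7.46e-05 FPKM under UV-B against 2.32, and 0.709 in dd against 2.34, past the threshold in neither. The protein-coding gene that starts 299 bp after the range, AT3G43960, had 9.18 FPKM under UV-B against 9.64.

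AT1G35612 (chromosome 1, 13145643 to 13146693) was the only gene of the 654 to pass as lower in either table. It had 12.7 FPKM under UV-B against 23.7 in Col-0 in white light, a log2 change of -0.90 (q = 0.00249 in the authors' deposited table). In dd it had 26.1 FPKM against 23.9 (q = 0.999 in the authors' deposited table). It is the second highest of all transcribed transposable element genes in Col-0, and its neighbours AT1G35610 and AT1G35614 were at or near 0 in all groups.

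**Figure D3:**
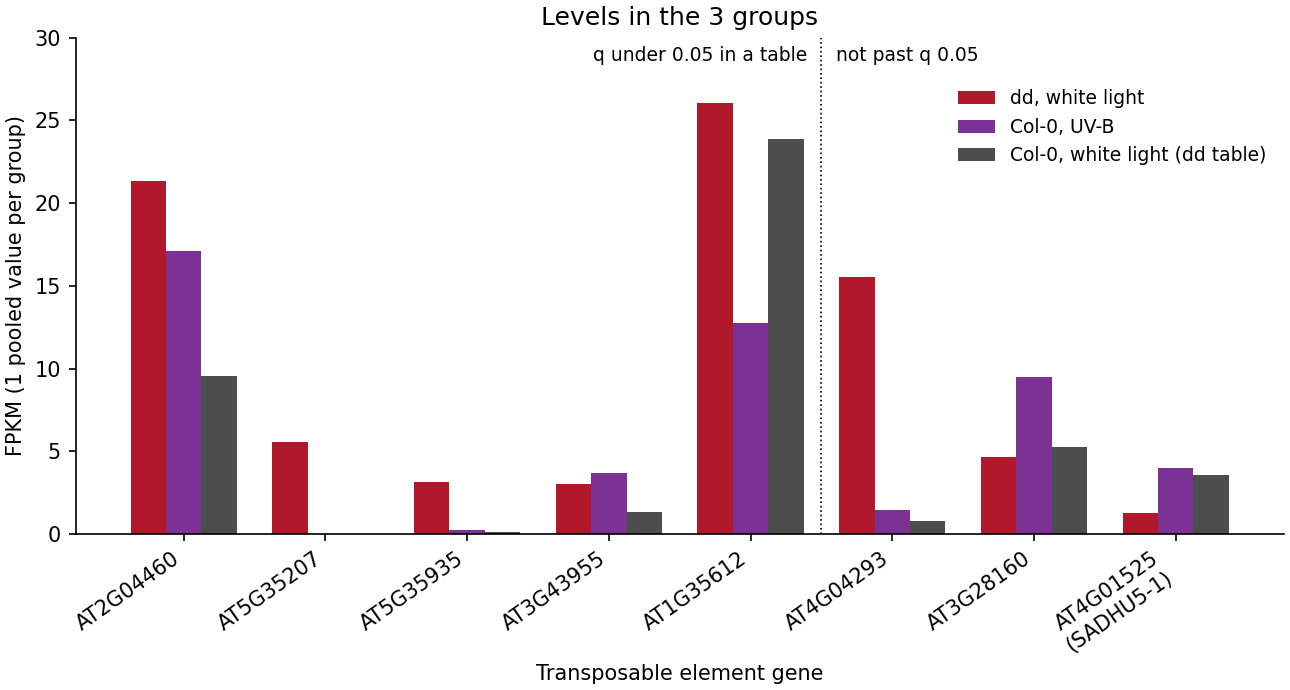
FPKM (vertical axis, 1 pooled value per group, so no error bars) of the 5 genes with q under 0.05 in a table, left of the dotted line, and of 3 that did not pass, right of it, in dd, in UV-B-treated Col-0 and in Col-0 in white light. AT5G35207 has a bar in dd alone, at 5.55 FPKM, AT2G04460 is higher in both dd and UV-B than in Col-0, and AT1G35612 is lower under UV-B, at 12.7 FPKM.

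AT3G28160 (chromosome 3, 10494656 to 10496814) came close to the threshold, with 9.49 FPKM under UV-B against 5.22 in Col-0 (q = 0.0590 in the authors' deposited table) and 4.63 in dd against 5.27. A transposon entry in its range, AT3TE43615, did pass, with 19.4 FPKM under UV-B against 9.37 (q = 0.0466 in the authors' deposited table). Other large changes under UV-B were not past the threshold. AT2G07767, 0.338 Mb from the centromere of chromosome 2, had 1.89 FPKM under UV-B against 0.164. Its range is only 382 bp long, so 1 fragment is worth more FPKM there than in a long range. AT2G03540, whose range is shared with protein-coding annotation, had 2.49 against 0.246, and AT5G37175 had 1.12 against 0.132. In the other direction AT4G08220 had 4.12 FPKM under UV-B against 9.02 (log2 change -1.13). None of these 4 passed q 0.05 in the authors' deposited table.

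Under UV-B 82 genes were above 0 and listed at 0 in Col-0 in white light, and 7 of them exceeded 0.1 FPKM. The 22 in dd are not like for like with these 7, since 1 fragment counted for more FPKM in dd. No base over all entries is given for either. Over all entries compared, 831 were above 0 under UV-B alone, 2961 in Col-0 alone and 23857 in both, against 82, 270 and 199 of the transposable element genes. AT4G07485 was highest with 0.333 FPKM, followed by AT3G42620 with 0.317 and AT3G29470 with 0.240, and each of these shares its range with a protein-coding gene. The reverse set held 270 genes, led by AT4G12200 with 0.736 FPKM in Col-0 and AT5G34810 with 0.432. AT5G34810 and AT3G45120 were at 0 both in dd and under UV-B and at 0.436 and 0.403 FPKM in Col-0 in white light. Both lie in ranges with protein-coding genes, and neither was tested by the authors.

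Whether a transcript seen in Col-0 was also seen in dd or under UV-B went with its level in Col-0. Of the genes at 0.01 FPKM or less in Col-0, 27 of 164 were also above 0 in dd (16.5%) and 27 of 162 under UV-B (16.7%). Between 0.1 and 0.3 FPKM it was 31 of 48 in dd (64.6%) and 33 of 48 under UV-B (68.8%). Above 1 FPKM all 51 were seen in both. Between 0.03 and 0.1 FPKM, 36.2% of the transposable element genes were seen in dd and 48.5% under UV-B, against 39.1% and 44.8% of protein-coding genes in the same band. Below that the transposable element genes had the lower shares. Between 0.01 and 0.03 FPKM they were at 15.8% in dd and 21.6% under UV-B, against 28.2% and 30.8% of protein-coding genes. In the lowest band protein-coding genes were at 36.8% in dd and 40.0% under UV-B, but only 19 and 20 of them fell in it. Depth was lower in dd and under UV-B, as given above, and its part in these shares was not tested.

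**Figure D4:**
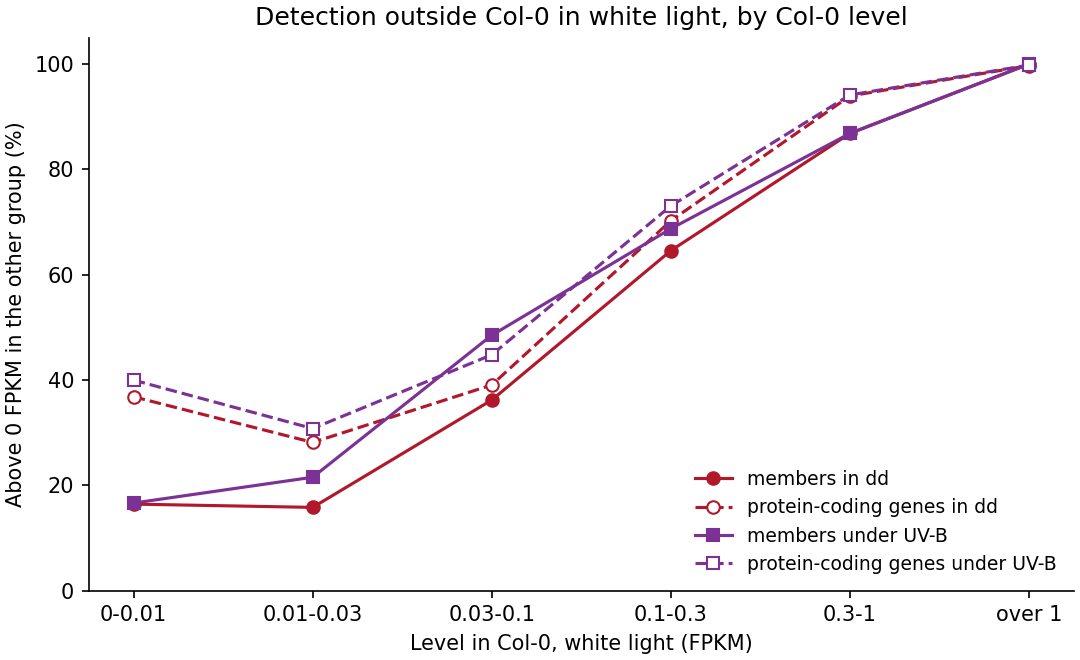
Percentage of genes above 0 FPKM in dd or under UV-B (vertical axis) by their level in Col-0 in white light (horizontal axis, FPKM bands), for the transcribed transposable element genes (filled) and protein-coding genes (open). All lines climb to 100% or close to it above 1 FPKM, and in the lowest band the transposable element genes are at 16.5% in dd and 16.7% under UV-B.

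Among genes above 0 in both groups, more had higher than lower values in dd and under UV-B. In dd 110 of 183 were higher and 73 lower than in Col-0, with a median log2 change of 0.15 (0.01 over all entries above 0 in both). With a mean of at least 1 FPKM it was 30 higher and 25 lower, with a median of 0.06. Under UV-B 122 of 199 were higher and 77 lower, with a median of 0.16 (0.00 over all entries), and at 1 FPKM 32 higher and 23 lower, with a median of 0.07. In ranges that hold transposons alone, 24 were higher and 17 lower in dd and 26 higher and 14 lower under UV-B at that level. Over all entries above 0 in both groups, 12158 were higher and 11498 lower in dd, and 12039 and 11818 under UV-B. Among entries annotated as transposons 284 were higher and 204 lower in dd, with a median of 0.25. Under UV-B 312 of them were higher and 206 lower, with a median of 0.28. A lean to higher values was therefore not particular to transposable element genes. The part of the lower depth in these counts was not tested.

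Differences of at least 2-fold were counted at a mean of 1 FPKM or more. In dd 8 of 55 such genes were higher and 2 lower, and under UV-B 7 of 55 were higher and 1 lower. Over all entries at that level 297 of 20045 were higher and 175 lower in dd, and 348 of 19992 were higher and 329 lower under UV-B. These same values chose the genes, and levels above that floor were not matched, so the shares are set side by side without further reading. Both upward shares were above those over all entries. Entries annotated as transposons had larger ones still, with 72 of 288 higher and 37 lower in dd, and 67 of 283 higher and 32 lower under UV-B. For the transposable element genes within 2 Mb of a centromere the counts in dd were 2 higher and 1 lower of 15. Farther out they were 6 higher and 1 lower of 40. Under UV-B they were 2 higher and 1 lower of 16 near the centromeres, and 5 higher and 0 lower of 39 farther out.

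**Figure D5:**
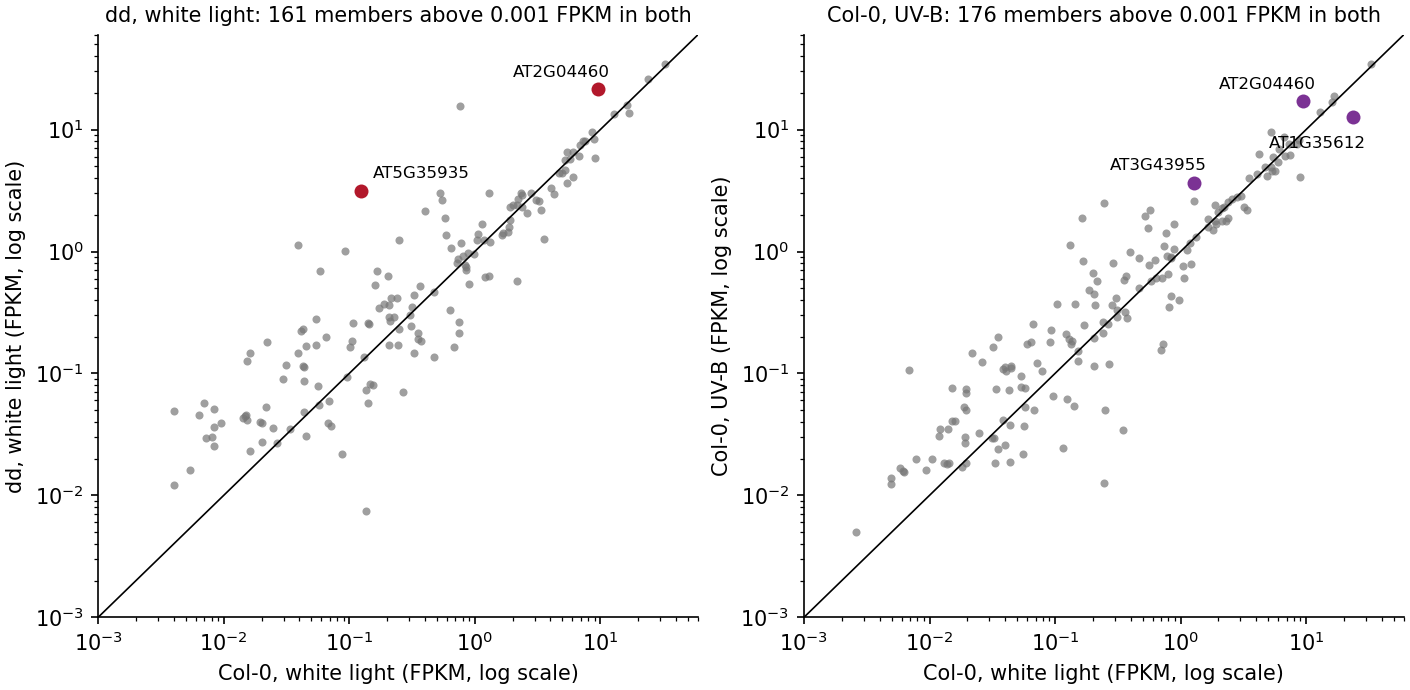
FPKM of each transcribed transposable element gene above 0.001 FPKM in both groups, in dd (left) and under UV-B (right) on the vertical axis against Col-0 in white light on the horizontal axis, both on log scales, with the line of equal levels. Coloured, named points have q under 0.05 in the authors' deposited tables; above 1 FPKM most points lie along the line, and below it they scatter, more of them above the line.

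Summed over all 654 genes, the level was 355 FPKM in dd against 316 in Col-0, a ratio of 1.12, or 0.0369% and 0.0330% of the FPKM of all entries. Without the 3 that passed q 0.05 in dd the ratio was 1.06, and without AT4G04293 as well 1.01, both computed as alternatives chosen after seeing the data. These 4 were taken out for being higher in dd, while genes lower in dd stayed in, so a ratio nearer 1 follows from that choice. Under UV-B the sum was 325 FPKM against 314 in Col-0, a ratio of 1.04. By distance, most of the excess in dd lay between 1 and 3 Mb from a centromere, with 95.1 FPKM in dd and 73.3 in Col-0 between 1 and 2 Mb and 87.3 against 63.4 between 2 and 3 Mb. The 4 genes taken out above all lie in these bins and hold much of that excess. Among them AT4G04293, which did not pass, had 15.6 FPKM in dd against 0.769, and AT2G04460 had 21.4 against 9.56. Beyond 10 Mb the sum was 59.9 FPKM in dd against 64.1 in Col-0.

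All 5 genes past q 0.05 lay between 1.77 and 2.39 Mb from a centromere. Of the 68 genes tested in either table, 27 lay between 1 and 3 Mb. The span of the 5 was read from these genes themselves and is narrower than that window, so the base is not like for like.

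The authors also deposited a list of raised transposons for each comparison. Transposable element genes made up 69 of the 270 entries for dd (25.6%) and 74 of the 269 for UV-B (27.5%), and all were among the 654. Most were low. The 69 had a median of 0.166 FPKM in dd against 0.0410 in Col-0, 13 exceeded 1 FPKM, 11 had been tested and 2 passed q 0.05 in the authors' deposited table. The 74 had a median of 0.123 FPKM under UV-B against 0.0404, 12 exceeded 1 FPKM, 12 had been tested and 2 passed.

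The smallest fold in the lists was 1.52 for dd and 1.53 for UV-B, and no entry had a Col-0 value of 0. AT5G35207, seen in dd alone, was therefore not on the dd list, nor was any other of the 108 genes seen in dd and listed at 0 in Col-0. In contrast, 9 transposable element genes on each list had a Col-0 value under 0.001 FPKM, and the highest fold among them was 622001 for dd and 252458 for UV-B, folds that rest on values below 1 fragment. Within 2 Mb of a centromere lay 28 of the 69 (40.6%) and 26 of the 74 (35.1%). Listed genes were above 0 in both groups, and of all such genes 70 of 183 lay that close for dd. For UV-B it was 69 of 199, so the listed genes lay much like that base. The share of all 654, 55.0%, includes genes seen in 1 group only. The authors chose both lists on these samples, so they are no independent evidence of direction.

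Of 30 genes that set, read or remove the marks of silencing, 28 were tested in each of the authors' deposited tables. In dd none was higher and 2 were lower in the authors' deposited table, where 0.157% of all tested entries were lower. They were DRM2, carrying a T-DNA insertion, and ROS1, the DNA demethylase gene, with 0.907 FPKM in dd against 7.02 in Col-0 (q = 0.0138). Under UV-B none passed in either direction. DDM1, the remodeller of heterochromatin, had 5.50 FPKM in dd against 6.07 in Col-0, and 5.60 under UV-B against 6.01. MET1, which maintains methylation at CG sites, had 5.32 FPKM in dd against 6.54, and 6.11 under UV-B against 6.49.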

How the data were processed

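RNA-seq values of 3 groups were used. Per the labels' protocols the kit was stranded and selected mRNA. Tools named in the submitters' processing notes are BSMAP, Cufflinks, HISAT2 and Trimmomatic, with TAIR10 as build; their roles and versions are not given in the sources used here. Per the file headers and their layout, the authors deposited 1 pooled FPKM value per group, entry and comparison, with their own p-values and q-values. The authors' q-values were counted at 0.05 in each direction, over whole tables. Read totals are not part of the tables, so depth was read only from isolated transposon entries over 1200 bp (products of FPKM and kb above 0.01, up to 1.7 times the lowest); it is rough and no counts were derived.

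Log2 changes divide by the Col-0 white-light value, without a pseudocount. Coordinates are the tables' locus ranges (TAIR10, 1-based), and distance runs from the range's midpoint to centromere positions of 15.09, 3.61, 13.80, 3.95 and 11.70 Mb for chromosomes 1 to 5. Names came from RefSeq (TAIR10.1), which matched all 3857 transposable element genes. The members and lists were chosen with earlier results of these data known. Genes were named by a rule taking those past q 0.05, the 8 highest per comparison, the 5 largest changes each way at 1 FPKM or more, the 5 highest at 0 in the other group, those highest within 1 Mb and beyond 5 Mb of each centromere, the 5 highest of each authors' list and 14 listed loci, which gave 52; RefSeq-named genes and neighbours were added after their values were seen. Counting steps were tested on simulated data. Python 3.11.15, pandas 2.3.3, NumPy 2.4.6 and Matplotlib 3.10.9 were used. Alternatives covered FPKM and q thresholds, pseudocount, scaling, overlap with other entries and the centromere window.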

Additional observations from a re-analysis of the deposited data

How the results depend on the processing

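No paired analysis was possible because the tables hold 1 pooled value per group, and for the same reason no replicate could be left out. Of 50 alternatives to 14 results, 29 stayed close and 21 moved. Close meant within a factor of 1.5 for counts and summed ratios, and within 0.1 for median log2 changes. For the share near centromeres it meant inside the interval given below. That factor is wide for summed ratios, which were 1.12 in dd and 1.04 under UV-B, so their staying close says little. A median in dd of 0.06 at 1 FPKM also counted as close to 0.15. Counted above 0.1 and 1 FPKM, the 654 genes became 198 and 70. Within 2 Mb of a centromere lay 40.4% and 31.4% of them in place of 55.0% (exact 95% binomial interval 51.1 to 58.9, counting error only). That interval treats genes as independent, which neighbours are not, and it served only to label the alternatives. With windows of 1 and 3 Mb, 25.8% and 72.9% of the 654 lay inside. Transposable element genes listed at 0 or under the threshold had the higher share in each of these settings. In dd the 3 higher calls became 0 at q 0.01 and 5 at an unadjusted p under 0.05, where 2 were lower in place of 0. Under UV-B the 2 higher calls and the 1 lower became 5 and 2 at that p, and 1 and 0 with a 2-fold change required. The median log2 change was 0.031 in dd and 0.017 under UV-B with a pseudocount of 1 FPKM, and 0.26 and 0.36 for ranges of transposons alone. Above 0.1 FPKM, 39 genes were past that level in dd and not in Col-0 and 32 the reverse, and 27 and 29 in the UV-B comparison. In dd the order of 108 and 288 above 0 therefore turned. Over all entries at 0.1 FPKM the counts were 850 and 1534 in dd, and 807 and 1445 in the UV-B comparison. Few fragments lie behind values under about 0.1 FPKM, and behind higher ones in short ranges, but genes were missed above that level too. Between 0.1 and 0.3 FPKM in Col-0, 64.6% of the genes were above 0 in dd and 68.8% under UV-B. For protein-coding genes it was 70.3% and 73.1%. The part of depth was not tested. The step close to 1 fragment, as FPKM times kb, was 0.124 in dd, 0.0880 under UV-B and 0.0346 in Col-0 in white light. Summed ratios stayed between 1.01 and 1.17.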
